A study of Mus musculus with 24 samples.

Results

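The promoters that lost, gained, narrowed or widened H3K4me3 between wild-type (WT) and Prrx1-deleted (SG) mouse embryonic fibroblasts (MEF) are described here, gene by gene. H3K4me3 is histone H3 trimethylated at lysine 4. The members are the 16089 H3K4me3 regions of the MEF WT library and the 14668 of the MEF SG library, out of the regions of 7 H3K4me3 libraries in a series of 24 samples. Regions of the 2 lists that overlapped by at least 1 bp were joined, which gave 16437 groups. Of these, 13952 held regions of both lists. Of the WT regions, 2010 (12.5%) had no SG partner, and 475 SG regions (3.24%) had no WT partner. With both lists kept to the same number of regions these counts were 992 and 839. A gene was assigned the regions within 1 kb of any of its annotated start sites. Its promoter was called lost when those regions were in the WT list only, gained when they were in the SG list only, and narrowed or widened when the summed width departed 1.5-fold or more from the median ratio over all paired groups. That median was 0.928 (SG over WT), or −0.11 on the log2 scale, with a standard deviation of 0.37 over the paired groups. Relative log2 widths below are values from which this median was subtracted. There was 1 library in each group, so no p-value is given and a difference describes these libraries and not the genotypes.

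The MEF came from C57BL/6 embryos taken at embryonic days 10 to 13 and were immortalised with the human papillomavirus genes E6 and E7, so that both groups carried these genes. SG cells had been made with CRISPR/Cas9 and a guide RNA against the first exon of Prrx1. A nontargeting guide (SgNS) served as the WT control in the study, but the labels do not state whether the MEF WT library came from cells carrying it. Whether the SG cells were a clone or a pool is not stated. MEF KI, used below only side by side, came from embryos with the Prrx1tm1Jfm mutation. Its strain label is C57BL/6 and the methods list these mice as backcrossed to C57BL6, but the protocol in the labels gives the mutant a 129S prefix, so its background is not settled. MMTV-CAF are cancer-associated fibroblasts from tumours of MMTV-PyMT mice, labelled FVB/NJ, whose transgene drives a viral oncogene in the mammary gland. Wound-healing fibroblasts, labelled C57BL/6, came from dorsal skin wounds at day 10. Strain and transgene thus differ together with the fibroblast type. Sequencing depth is unknown from region lists. The median −log10 p of the regions was 28.6 in WT and 23.3 in SG, their median width 1720 and 1684 bp, and their median fold enrichment over input 4.97 and 5.46. The check of cell identity gave H3K4me3 at 13 of 14 fibroblast markers, 2 of 10 epithelial, 1 of 9 endothelial, 0 of 8 haematopoietic, 0 of 8 skeletal muscle and 6 of 10 neural and neural crest markers.

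H3K4me3 is laid down around the start sites of genes that are transcribed or poised. Its width differs between genes, and very wide domains are common at genes that define a cell type. Prrx1 is a homeodomain transcription factor of embryonic mesenchyme and of fibroblasts. Interferon-stimulated genes, which recur below, encode antiviral effectors. They are switched on when transcription factors activated by interferon receptors bind the interferon-stimulated response element in their promoters, and many of them also keep a low level of transcription without infection.

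The promoters of 7 genes on which the results turn are printed from the mm9 genome, from 250 bases before to 50 bases after the annotated start site nearest the centre of the gene's H3K4me3 group, 5′ to 3′ on the gene's strand. The window therefore holds upstream sequence and the first bases of the first exon. The first 4 are interferon-stimulated genes, and the capitals mark matches to GAAANNGAA on either strand, the core of the interferon-stimulated response element. Ifi44 lies on the minus strand at chr3:151412825-151413124 and Oas1a on the minus strand at chr5:121357481-121357780, and both were lost. Usp18 lies on the plus strand at chr6:121195674-121195973 and was narrowed. Isg15 lies on the minus strand at chr4:155574878-155575177 and was stable, and is shown because it too holds the element.
Ifi44: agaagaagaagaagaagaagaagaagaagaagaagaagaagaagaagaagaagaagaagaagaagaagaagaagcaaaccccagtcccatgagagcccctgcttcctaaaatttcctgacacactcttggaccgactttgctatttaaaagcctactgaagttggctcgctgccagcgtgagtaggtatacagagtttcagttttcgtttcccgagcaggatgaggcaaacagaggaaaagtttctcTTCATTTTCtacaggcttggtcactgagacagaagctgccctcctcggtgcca
Oas1a: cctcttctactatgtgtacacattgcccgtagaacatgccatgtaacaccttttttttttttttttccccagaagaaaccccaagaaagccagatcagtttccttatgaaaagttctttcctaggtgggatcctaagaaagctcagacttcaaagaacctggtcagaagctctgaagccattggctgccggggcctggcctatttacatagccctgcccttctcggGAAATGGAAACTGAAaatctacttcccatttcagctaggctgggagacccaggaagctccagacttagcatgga
Usp18: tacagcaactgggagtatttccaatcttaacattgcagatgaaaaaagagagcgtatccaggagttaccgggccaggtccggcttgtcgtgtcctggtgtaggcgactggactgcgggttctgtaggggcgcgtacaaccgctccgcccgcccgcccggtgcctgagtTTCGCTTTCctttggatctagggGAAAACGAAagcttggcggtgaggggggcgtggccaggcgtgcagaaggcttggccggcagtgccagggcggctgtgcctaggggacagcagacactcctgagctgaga
Isg15: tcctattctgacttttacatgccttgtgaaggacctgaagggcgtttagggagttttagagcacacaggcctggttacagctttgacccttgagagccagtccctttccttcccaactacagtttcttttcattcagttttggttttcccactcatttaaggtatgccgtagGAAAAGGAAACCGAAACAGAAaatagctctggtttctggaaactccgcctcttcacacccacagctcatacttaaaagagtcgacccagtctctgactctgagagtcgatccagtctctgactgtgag

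The other 3 are shown for their CpG content, with each CpG in capitals. Thbs2, lost, lies on the minus strand at chr17:14831220-14831519 and has 4 CpG. Perp, gained, lies on the plus strand at chr10:18564627-18564926 and has 26. Wnt7a, the most widened of the promoters at least 2 kb wide in the wider library, lies on the minus strand at chr6:91361308-91361607 and has 41.
Thbs2: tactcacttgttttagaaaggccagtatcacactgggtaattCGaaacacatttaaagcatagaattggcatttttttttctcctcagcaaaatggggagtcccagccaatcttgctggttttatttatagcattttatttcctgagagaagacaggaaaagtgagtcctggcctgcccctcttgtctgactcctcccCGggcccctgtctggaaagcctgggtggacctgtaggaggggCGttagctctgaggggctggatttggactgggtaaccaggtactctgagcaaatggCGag
Perp: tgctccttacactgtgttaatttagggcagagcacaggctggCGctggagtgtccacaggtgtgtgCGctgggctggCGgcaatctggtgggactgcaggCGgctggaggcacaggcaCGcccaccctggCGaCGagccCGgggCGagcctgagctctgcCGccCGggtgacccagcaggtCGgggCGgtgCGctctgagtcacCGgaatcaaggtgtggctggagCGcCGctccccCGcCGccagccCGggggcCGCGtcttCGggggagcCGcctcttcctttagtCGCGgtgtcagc
Wnt7a: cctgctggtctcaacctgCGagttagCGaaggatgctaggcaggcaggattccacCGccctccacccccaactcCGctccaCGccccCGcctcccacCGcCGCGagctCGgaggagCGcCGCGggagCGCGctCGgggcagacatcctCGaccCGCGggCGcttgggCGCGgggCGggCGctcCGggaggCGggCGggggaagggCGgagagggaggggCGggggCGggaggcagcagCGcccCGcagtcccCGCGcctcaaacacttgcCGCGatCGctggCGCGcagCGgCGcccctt

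At Prrx1 itself H3K4me3 was listed in both libraries. The summed width over the group at chr1:165236674-165245301 was 8628 bp in WT and 7341 bp in SG, a relative log2 width of −0.13, and the highest −log10 p was 38.5 and 27.6. The promoter was stable by the rule. A histone mark at the promoter does not check an edit in the first exon, so the deletion itself was not tested here.

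Of 22372 protein-coding genes, 12409 had an H3K4me3 region at a start site in WT or SG. Among the 12329 with a WT region, 411 promoters were lost (3.33% of them). Among the 11995 with an SG region, 78 were gained (0.65%). Of 11915 paired genes, 440 were narrowed (3.69%), 93 were widened (0.781%) and 11382 were stable. A further 5 genes had regions of both kinds at different start sites and were not classed. Losses therefore outnumbered gains, and narrowing outnumbered widening. With groups of at least 1 kb in both lists, 183 genes were narrowed and 25 widened. With both lists kept to a −log10 p of at least 10, these counts were 251 and 41. With both lists kept to the same number of regions, the strongest by −log10 p, the genes lost and gained were 292 and 145 in place of 411 and 78. Just inside the narrowing threshold were Slc2a10 and Vegfc, both at a relative log2 width of −0.59, and just outside it were Specc1, Ecscr and Slc4a4, each at −0.58. At the widening threshold Aaas and Ppil2 (both 0.59) lay inside, and Nkain2 (0.58) and Pigm (0.58) outside.

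Loss went with the strength of the WT region. In the weakest quartile of WT groups, with a −log10 p of 3.03 to 10.2, 1949 of 3991 (48.8%, Wilson 95% interval 47.3 to 50.4%) had no SG region. In the second quartile the count was 60 of 3990 (1.5%, 1.17 to 1.93%), in the third 1 of 3990 and in the fourth 0 of 3991. These intervals cover counting error over groups and not differences between cultures. Lost groups were narrow, with a median width of 400.5 bp and a median −log10 p of 4.65, and 501 of 2010 (24.9%) lay at a protein-coding start site. Among paired groups 11099 of 13952 (79.6%) did. Only 39 of the 411 lost genes had a WT region with a −log10 p of at least 10, at 37 groups. Of these 39 genes, 10 were interferon-stimulated genes (25.6%) and 1 (2.56%), Thbs2, was in the list of 40 matrix genes, which does not hold every gene of a matrix protein. Over all 12409 gene entries with a region these lists made up 0.58% (72 entries, since Psmb9 is annotated under 2 gene IDs) and 0.31%. The part of the lower −log10 p of the SG list in the weaker losses was not tested.

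**Figure D1:**
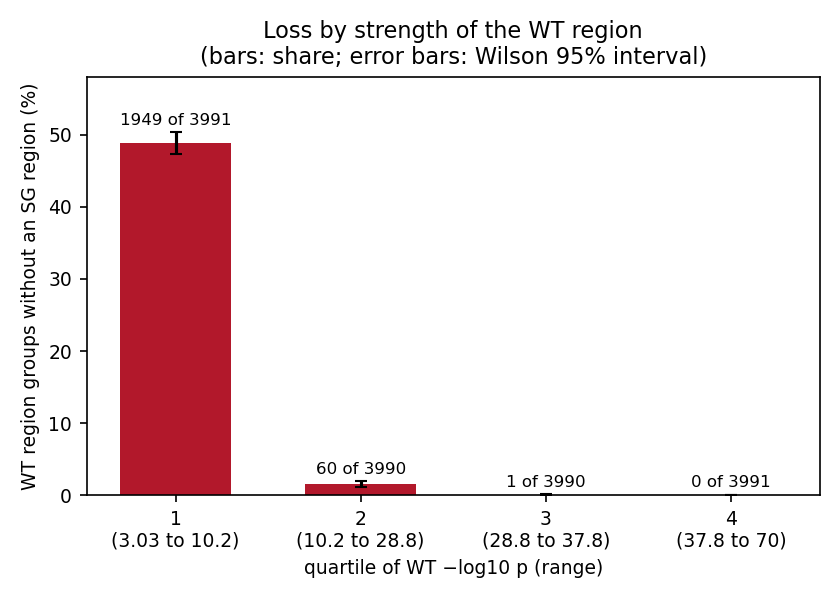
Share of WT region groups that had no SG region (y axis, percent; error bars are Wilson 95% intervals) by quartile of the WT −log10 p (x axis, with the range of each quartile). The weakest quartile holds 1949 of the losses, and the strongest holds 0 of 3991.

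Interferon-stimulated genes recurred among the strongest losses and the widest narrowed promoters. The list of 80 was put together after the values of these libraries had been seen, so its count is a description and no evidence of its own. Of the 80, 71 had a region in WT or SG, at 68 groups because some neighbours share a promoter region. Of the 71, 15 were lost, 26 were narrowed, 30 were stable, and 0 were gained or widened. The share lost or narrowed was 57.7%, and that over all protein-coding genes with a region was 6.86%. The share gained or widened was 0%, and 1.38% over all. The median relative log2 width of the 56 paired genes was −0.54, against 0.01 over all paired genes, and 47 of the 56 lay below the median ratio. A shorter list of 29 inflammatory and interferon genes, which was also put together with results of the series known, gave 3 lost (Ccl2, Ccl7 and Ifit3), 2 narrowed (Cxcl1 and Ifit1) and 17 stable of 22 with a region, with a median of −0.24 over 19 paired genes.

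The strongest lost promoter of all was that of Ifi44, an interferon-induced protein of unsettled function. Its region of 2946 bp at chr3:151410086-151413031 had a −log10 p of 30.1 and a fold enrichment of 8.32 in WT, and there was no region in SG. Oas1a and Oas1g encode oligoadenylate synthetases, which sense double-stranded RNA and switch on RNase L. Oas1a had 2018 bp (−log10 p 20.5) and Oas1g 1538 bp (15.8) in WT, and neither was listed in SG. Their neighbour Oas2 had 2082 bp (8.86) in WT and none in SG, while Oas1b, in the same cluster on chromosome 5, was narrowed from 2460 to 1515 bp. Trim30a, a regulator of innate signalling, had 2524 bp (16.9) in WT, and the Ifit-family gene I830012O16Rik had 2713 bp (13.8). Ifit3, whose product belongs to a family that binds foreign RNA, had the widest region of the lost interferon-stimulated genes, 3553 bp (8.34). Rsad2 encodes viperin, an antiviral enzyme, and had 2757 bp (8.29). Slfn2 had 2666 bp (9.79), the guanylate-binding protein gene Gbp6 1479 bp (11.5), Ifi27l2a 1649 bp (11.3) and D14Ertd668e 1215 bp (11.5). Ifi203 and Mndal, of the family of interferon-inducible DNA-binding proteins, share a region of 1175 bp (12.04). Iigp1, an immunity-related GTPase, had 1163 bp and the weakest score, 4.79. It lies in a run of 5 consecutive lost WT regions at chr18:60371314-60536632, with Gm4951, Gm4841 and F830016B08Rik.

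The 26 narrowed genes kept a region in SG, with an SG to WT width ratio of 0.163 (Sp100) to 0.616 (Oas1b). They had WT widths of 1292 to 5834 bp, with a median of 3103 bp, and SG widths of 343 to 2588 bp, with a median of 1245 bp. Sp100, a component of nuclear bodies, went from 2211 to 361 bp (relative log2 width −2.51). Mx2, a dynamin-like antiviral GTPase, went from 5834 to 1140 bp (−2.25). Dhx58, which encodes the RNA sensor LGP2, went from 1535 to 343 bp (−2.05). Usp18, the protease that removes Isg15 from proteins and restrains interferon receptor signalling, went from 4390 to 1115 bp (−1.87). Irf9, a transcription factor that binds the element, went from 2865 to 768 bp (−1.79). Xaf1 went from 3563 to 1137 bp (−1.54), the synthetase-like gene Oasl2 from 3442 to 1220 bp (−1.39) and Trim25 from 4338 to 1859 bp (−1.11). Uba7, the enzyme that activates Isg15, went from 1292 to 495 bp (−1.28). The smaller changes included Eif2ak2, the kinase PKR that halts translation, from 3415 to 1655 bp (−0.94), and Bst2, or tetherin, from 3290 to 1624 bp (−0.91). Parp9 and Dtx3l share a promoter region, which went from 3103 to 1764 bp (−0.71). The log2 ratio of the fold enrichment of the 26 was −0.20 at the median, against 0.08 over all paired genes.

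The 30 stable members included components of the same pathway. Stat2 went from 2637 to 1697 bp (−0.53), Irf7 from 1478 to 934 bp (−0.55) and Isg15 itself, the ubiquitin-like modifier, from 5384 to 3729 bp (−0.42). These 3 lay below the median ratio and did not pass the 1.5-fold rule. Among other stable members, Psmb8 was at −0.04, Tapbp at −0.22, Tap2 at 0.13 and the shared promoter of Tap1 and Psmb9, genes of antigen processing, at −0.40. Cxcl10, the interferon-induced chemokine, went from 1155 to 1448 bp (0.43). Of 27 genes for interferon receptors and signalling, a list also put together after values were seen, 24 had a region, 0 were lost, 5 were narrowed (Dhx58, Ifngr1, Irf9, Tlr3 and Usp18) and 19 were stable. The share narrowed was 20.8%, beside 6.86% lost or narrowed over all genes, and Dhx58, Irf9 and Usp18 are also among the 26 narrowed interferon-stimulated genes. The receptor genes of type I interferon were among the stable ones, Ifnar1 with 2420 and 2010 bp in WT and SG (−0.16) and Ifnar2 with 2075 and 1728 bp (−0.16). Jak1 was at 0.05 and Irf3 at 0.04. Ifngr1, a receptor subunit for interferon gamma, went from 2584 to 1376 bp (−0.80), and Ifngr2 was at 0.19.

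**Figure D2:**
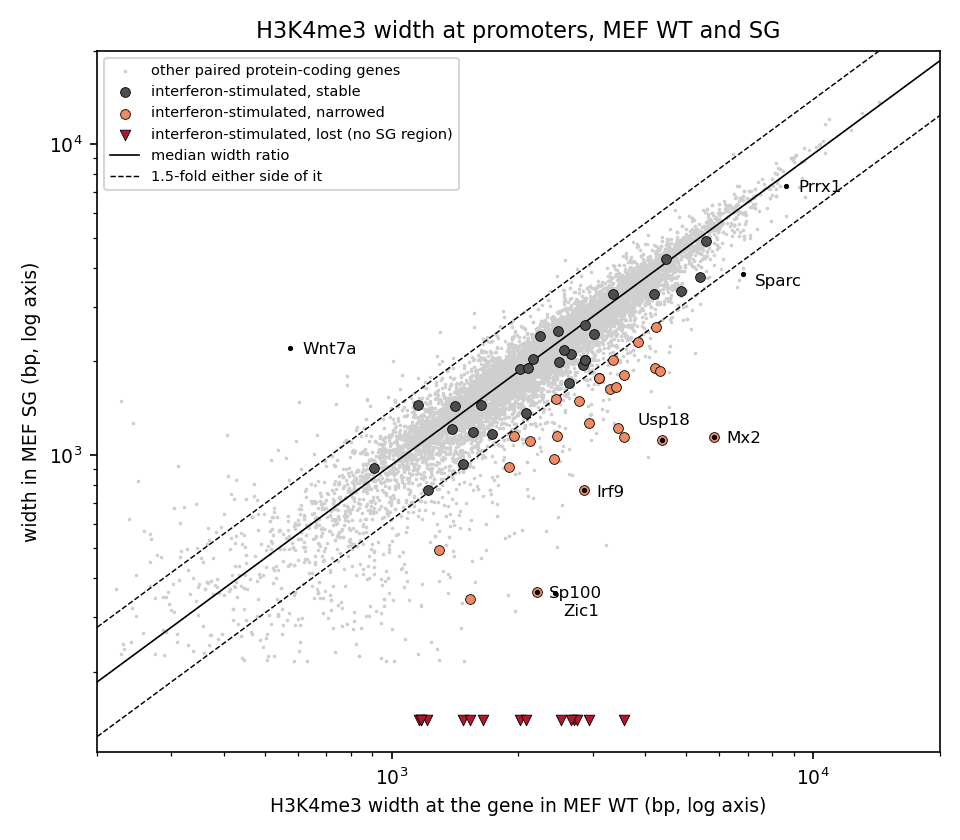
Summed H3K4me3 width at each paired protein-coding gene in MEF WT (x axis, bp, log scale) and MEF SG (y axis, bp, log scale), with the median ratio (solid line) and 1.5-fold on either side (dashed lines). Narrowed interferon-stimulated genes such as Mx2, with 5834 and 1140 bp, lie below the lower dashed line, the 15 lost ones are drawn as triangles along the bottom at their WT width, and Wnt7a, with 573 and 2205 bp, lies far above.

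H3K27ac, the acetylated histone mark of active promoters and enhancers, had been measured in the same 2 cell types in separate ChIP libraries. It was not used to class the promoters. The gene lists were chosen with earlier results of these data known, and the plan for the printed promoters took H3K27ac differences into account. The values below are therefore a description and no independent check. Those lists give 44918 summits in WT and 43019 in SG, each with a −log10 p. Their heights were larger in SG overall. Over the 10776 genes with a summit within 1 kb of the group in both, the median ratio of the highest −log10 p (SG over WT) was 1.56. Of the 15 lost interferon-stimulated genes, 12 had an H3K27ac summit in WT and 0 had one in SG. For I830012O16Rik the WT summit had a −log10 p of 59.6, for Trim30a 42.4, for Slfn2 30.3 and for Ifi44 24.3. Ifi27l2a, Iigp1 and Rsad2 had none in either library. Of the 26 narrowed genes all had a WT summit and 24 also an SG one, the exceptions being Usp18 (27.7 in WT) and Samd9l (21.1 in WT). In all 24 the ratio lay below the median ratio of all genes, with a median relative log2 height of −0.94. In 19 of the 26 the SG value was also lower without that correction, as at Oasl2 with 79.5 and 36.3 and Xaf1 with 54.1 and 28.2, while at Eif2ak2 it was 46.0 and 60.0. Among the 30 stable members 24 lay below the median ratio, with a median relative log2 height of −0.53. Relative to the median ratios, the 2 marks thus lay lower in SG at most of these promoters, in 1 library each.

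Over the other lost promoters H3K27ac was sparser. Of the 396 lost genes outside the list, 55 (13.9%, 10.8 to 17.6%) had a WT summit, and 30 of these 55 also had one in SG. In the weakest quartile of WT strength 29 of the 54 lost genes with a WT summit kept one in SG, and 61 of 64 stable genes did. Among all 440 narrowed genes 277 had a WT summit, 253 of these also an SG one, and the relative log2 height was −0.42 at the median, below the median ratio in 199 of 253. Among the 93 widened genes 27 had a summit in WT and 46 in SG, and among the 78 gained genes 5 and 15. Other genes had more summits in SG too. Among all genes with a region 10863 of 12409 had one in WT and 11253 in SG, and among the stable genes of the weakest quartile 64 of 374 (17.1%) and 117 (31.3%). Over all stable genes 10487 of 11382 (92.1%) had one in WT, and 99.8% of these kept one.

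**Figure D3:**
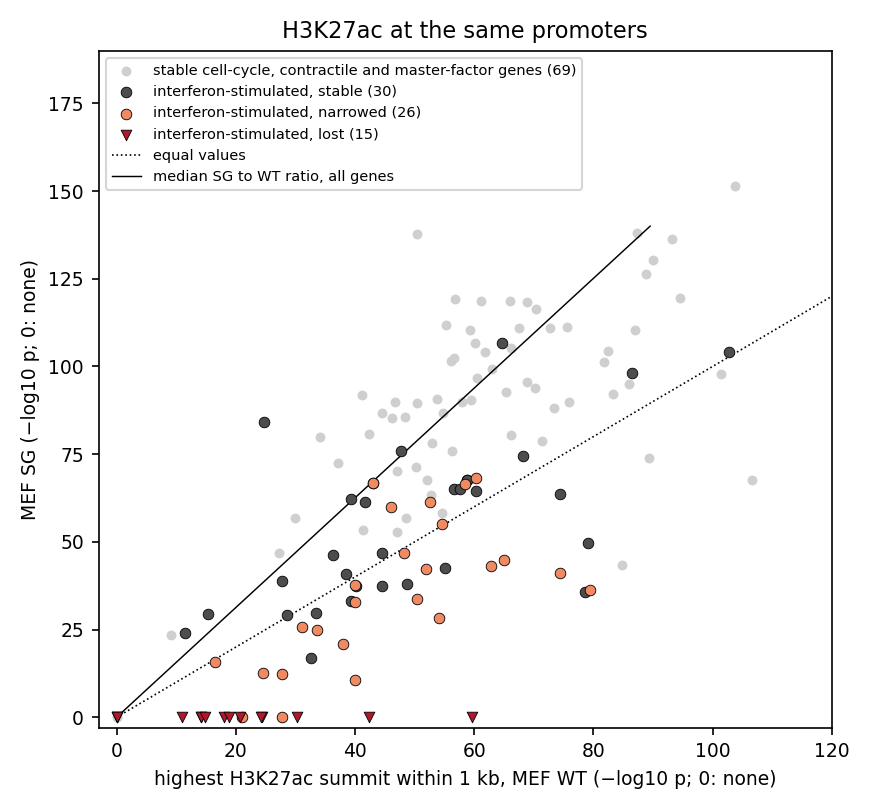
Highest H3K27ac summit within 1 kb of the H3K4me3 group, as −log10 p, in MEF WT (x axis) and MEF SG (y axis), with 0 where no summit was listed. The lost interferon-stimulated genes (triangles) lie at 0 in SG, the 24 narrowed ones with a summit in both lie below the solid line of the median ratio, and stable genes of other lists scatter around that line.

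The same 71 genes were read in all 7 H3K4me3 libraries, as the summed width of regions that overlap the MEF group. Their median width was 2566 bp in MEF WT, 1360 bp in MEF SG and 1952 bp in MEF KI. In MMTV-CAF it was 1562 bp for WT and 3696 bp for SG. Wound-healing fibroblasts had a median of 2340 bp (WT) and 2739 bp (SG). Over all 12409 genes with an MEF region the medians were 2198, 2019, 1646, 2919, 2772, 2078 and 2366 bp in the same order. MEF SG and MMTV-CAF WT were thus the libraries in which the interferon-stimulated genes lay below the median of all genes, and in the other 5 they lay above. The 15 genes lost in MEF SG had a region in 9 cases in MEF KI, 7 in MMTV-CAF WT, 13 in MMTV-CAF SG, 15 in wound-healing WT and 14 in wound-healing SG. Ifi44 had 2383 bp in MEF KI, none in MMTV-CAF WT, and 4722 bp in MMTV-CAF SG. The wound-healing libraries had 1440 bp (WT) and 2592 bp (SG) there. Usp18 had 4095 bp in MEF KI. In MMTV-CAF it went from 1228 bp (WT) to 5132 bp (SG), while the wound-healing pair had 3977 and 4744 bp. Mx2 had 3484 bp in MEF KI, 2610 and 8982 bp in the MMTV-CAF pair, and 6767 and 5076 bp in the wound-healing pair.

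Each pair was then classed by its own median ratio. MEF KI shares the MEF WT library with MEF SG, so the values stand side by side only. In MEF KI, 14 of 71 members with a region were lost or narrowed (19.7%), where 19.2% of all genes were, and 2 were gained or widened (2.82%), where 2.57% of all were. The share was thus near the background, with a median relative log2 width of 0.09. In MMTV-CAF, 0 of 76 members were lost or narrowed, where 7.09% of all genes were, and 59 were gained or widened (77.6%), where 7.88% were, with a median of 0.89 over 62 paired members. In wound-healing fibroblasts 3 of 74 were lost or narrowed (4.05%, 5.49% of all) and 13 gained or widened (17.6%, 6.9% of all), with a median of 0.04. The SG libraries of MEF and MMTV-CAF therefore differed from their WT libraries in opposite directions at these genes. No test of that difference is possible with 1 library in each group.

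**Figure D4:**
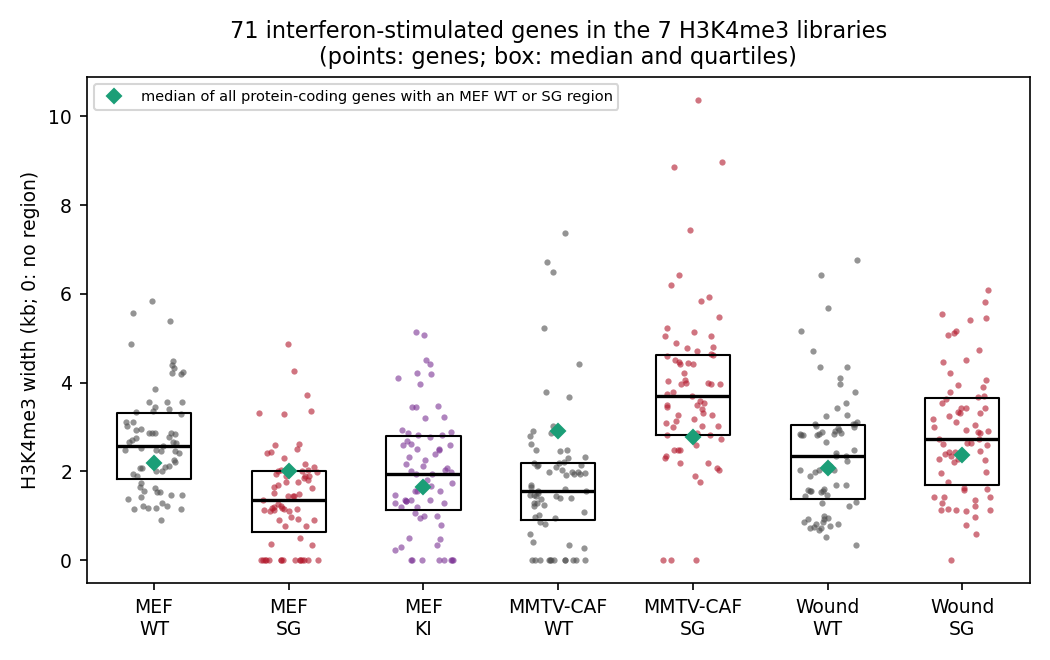
H3K4me3 width (y axis, kb, 0 where no region was listed) of the 71 interferon-stimulated genes in each of the 7 H3K4me3 libraries, with points for genes, boxes for quartiles and median, and diamonds for the median of all 12409 genes. The box of MEF SG (median 1360 bp) is the lowest and that of MMTV-CAF SG (3696 bp) the highest.

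Outside the interferon list, the strongest lost promoters belonged to genes of mixed function. The list of 40 matrix genes held 0 of the 10 strongest lost genes. Some genes named here encode matrix proteins outside that list, and the share of such genes among the losses was not counted. Fbn2, which encodes a microfibril protein, had a region of 1645 bp with a −log10 p of 16.7 in WT and none in SG. Smoc2, a secreted calcium-binding matrix protein, had 2222 bp (15.7), and Thbs2, also on chromosome 17, a matricellular thrombospondin, had 3213 bp (13.7). Thbs2 also had 5 H3K27ac summits in WT, the highest at 24.1, and none in SG. Bves, a membrane protein of muscle and epithelia, had 1951 bp (14.4), AW551984 1945 bp (14.3) and Samd10 700 bp (13.8). Lama4, a laminin chain, had 1873 bp (13.1), the retinoic acid receptor gene Rarb 1139 bp (13.1) and the collagen gene Col19a1 1384 bp (12.4). The MEF KI library had 1451 bp at Fbn2, 1880 bp at Smoc2, 331 bp at Thbs2 and 578 bp at Bves. It had no region at AW551984 and Col19a1.

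Of 40 matrix genes, 38 had a region, of which 3 were lost (Thbs2, Postn and Eln), 2 narrowed (Col11a1 and Sparc) and 33 stable, with 0 gained or widened. That share of 13.2% lost or narrowed stands beside 6.86% over all genes, and rests on 5 genes. Postn, the matricellular protein periostin, had 1929 bp at a −log10 p of 4.21, and Eln, or elastin, 825 bp at 5.6. Both scores lay in the weakest quartile. Col11a1 went from 2932 to 1431 bp (−0.93), and its H3K27ac summit of 10.4 in WT had no SG counterpart. Sparc, which encodes a collagen-binding glycoprotein, went from 6805 to 3834 bp (−0.72), and its H3K27ac summit was 78.9 in WT and 105 in SG, a ratio below the median ratio of all genes. Of 22 collagen genes with a region, 2 were lost (Col19a1 and Col5a3), 2 narrowed (Col11a1 and Col16a1) and 18 stable, so that 18.2% were lost or narrowed, beside 6.86% over all genes. Among stable matrix genes Col1a1 had 4841 and 3531 bp (−0.35), Col1a2 3648 and 3569 bp (0.08), Col3a1 3709 and 3659 bp (0.09) and the fibronectin gene Fn1 4901 and 3583 bp (−0.34). The median of the 35 paired matrix genes was −0.18, and 26 of them lay below the median ratio.

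Of 30 contractile and myofibroblast genes, all with a region, 3 were narrowed, Lmod1 from 1631 to 465 bp (−1.70), Cnn1, or calponin, from 1153 to 636 bp (−0.75) and the collagen receptor gene Itga11, and 27 were stable. Acta2, the smooth muscle actin of myofibroblasts, had 4406 and 3415 bp (−0.26) and Tagln 3656 and 2617 bp (−0.37). In the TGF-beta pathway 27 of 28 genes had a region. Of these, Eng (387 bp, 5.98) and Tgfbi (605 bp, 10.6) were lost, Smurf1 (−0.73) and Ltbp2 (−0.67) were narrowed and 23 were stable. Eng encodes the co-receptor endoglin. The ligand gene Tgfb1 (−0.09), the receptor genes Tgfbr1 (0.11) and Tgfbr2 (0.05) and Smad3 (0.01) were among the stable ones. Lost and narrowed members of the contractile and TGF-beta lists made up 10% and 14.8% of those with a region, beside 6.86% over all genes, and rest on 3 and 4 genes.

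Few chemokine and receptor genes carried the mark. Of 55, 12 had a region, of which 4 were lost, 2 narrowed and 6 stable. The 50% lost or narrowed stands beside 6.86% over all genes and rests on 6 genes. Ccl2 and Ccl7, neighbouring monocyte attractants on chromosome 11, had 1321 bp (5.92) and 479 bp (3.60) in WT. Ccl2 kept H3K27ac, 21.0 in WT and 22.8 in SG, and Ccl7 had 23.3 in WT and none in SG. Cxcl16 had 654 bp (12.7) at a start it shares with Zmynd15, and Cxcr7 577 bp (5.05). Cxcl1 went from 2402 to 1271 bp (−0.81) and Cx3cl1 from 1396 to 612 bp (−1.08). Cxcl12 was stable, with 5603 and 4351 bp (−0.26), and Il6 with 1772 and 1279 bp (−0.36).

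Several lists of developmental regulators were read. Of 49 mesenchymal transition and patterning factors 41 had a region, and 2 were lost (Hand2 and Six2), 2 gained (Gata4 and Msx2) and 37 stable. The share lost or narrowed was 4.88%, below the 6.86% over all genes, and the share gained or widened also 4.88%, beside 1.38%. Hand2, a limb and heart factor, had 457 bp (6.54) in WT and Six2 316 bp (3.81). Twist1 (−0.38), Twist2 (0.07), Snai2 (0.38), Zeb1 (0.27), Runx1 (0.09) and Tbx15 (0.03) were stable. The Hox genes, which set position along the body and limbs, had a region at 11 HoxA, 7 HoxB, 9 HoxC and 5 HoxD members. Of these, Hoxa11 (655 bp, 4.56), Hoxc4 (1854 bp, 6.45), Hoxc13 (1594 bp, 6.63) and Hoxd1 (774 bp, 10.1) were lost and Hoxc12 was gained, with 560 bp at 3.56. Hoxb13 (0.87) and Hoxd10 (0.90) were widened, and the others were stable. The share lost or narrowed was 9.09% in HoxA, 0% in HoxB, 22.2% in HoxC and 20% in HoxD, each resting on 2 genes or fewer, beside 6.86% over all genes. The share gained or widened was 0% in HoxA, 14.3% in HoxB, 11.1% in HoxC and 20% in HoxD, beside 1.38%, and rests on 1 gene in each of the last 3. Of 21 Wnt ligands and receptors with a region, 3 were lost, 1 narrowed, 2 widened, 14 stable and 1 mixed. The share lost or narrowed was 19.05%, beside 6.86% over all genes, and the share gained or widened 9.52%, beside 1.38%. Wnt2b, Wnt3 and Wnt6 were lost at −log10 p of 6.78, 4.24 and 4.33, Wnt2 was narrowed (−0.60), and Wnt7a and Wnt7b were widened. The most narrowed promoters among those at least 2 kb wide were the region shared by the neighbours Zic1 and Zic4, zinc-finger factors of neural crest and dorsal mesoderm, from 2443 to 359 bp (−2.66), and Sox11, from 3235 to 513 bp (−2.55). Neither had an H3K27ac summit in WT or SG. Also among the 10 most narrowed were Pde8b, a cyclic AMP phosphodiesterase, from 2466 to 505 bp (−2.18), Sdpr, a caveolar protein, from 4055 to 981 bp (−1.94), Stox2 from 2321 to 568 bp (−1.92), and Nov, a matricellular protein of the CCN family, from 2476 to 631 bp (−1.86). Pde8b had an H3K27ac summit of 30.8 in WT and none in SG. The remaining 3 of the 10, Sp100, Mx2 and Usp18, are the interferon-stimulated genes given above. Of the 10, only Mx2 and Usp18 had a paired value with both lists kept to a −log10 p of at least 10. The same held with groups of at least 1 kb in both lists.

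**Figure D5:**
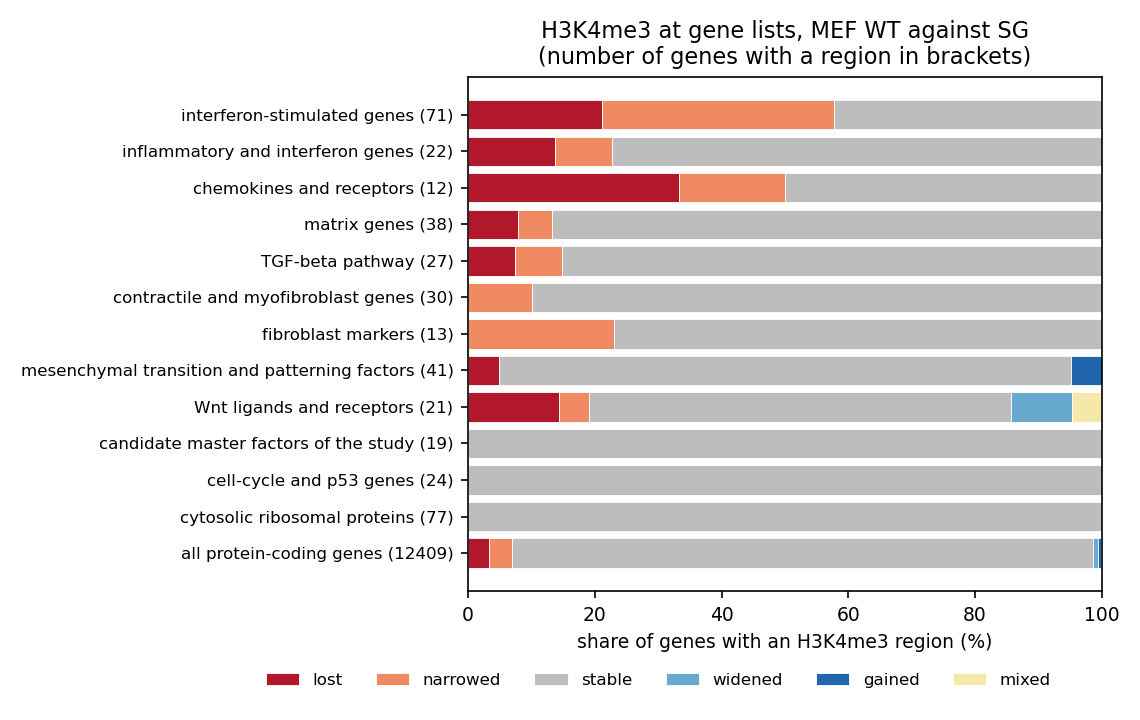
Share of the genes with an H3K4me3 region (x axis, percent) that were lost, narrowed, stable, widened, gained or mixed in MEF SG, for 12 gene lists and for all protein-coding genes (number of genes in brackets). Of 71 interferon-stimulated genes 41 were lost or narrowed, and of the 19 master factors, 24 cell-cycle and 77 ribosomal protein genes all were stable.

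Most wide promoters kept their width. Of 1144 genes with at least 4 kb in WT, 795 (69.5%) had at least 4 kb in SG, 0 were lost, and 349 fell below 4 kb. Of those 349, 312 were stable by the 1.5-fold rule and 37 narrowed. Interferon-stimulated genes were 5 of the 37, 3 of the 312 and 10 of all 1144. Besides Mx2, Usp18, Sdpr and Sparc, the 37 included Ptn, Irx1, Irx2, Gsn, Thbd, Cdk1 and Cyp1b1. A further 50 genes reached 4 kb in SG only, and these began from a median of 3809 bp in WT and ended at 4176 bp. Of 19 candidate master factors named by the study, all with a region, all were stable, with relative log2 widths from −0.23 (Zbtb7a) to 0.41 (Tead4). All 24 cell-cycle and p53 genes, 77 ribosomal protein genes, 76 mitochondrial ribosomal protein genes and 38 proteasome genes with a region were stable too. Of 13 fibroblast markers with a region 10 were stable and 3 narrowed (23.1%, beside 6.86% of all genes lost or narrowed). Thy1, a surface glycoprotein used to mark fibroblasts, went from 2580 to 1219 bp (−0.97), Fap, the fibroblast activation protease, from 959 to 326 bp (−1.45) and S100a4 from 1891 to 353 bp (−2.31). At S100a4 the H3K27ac summit was 94.6 in WT and 131 in SG, higher in SG but by less than the median ratio of 1.56.

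Gained promoters were weaker than lost ones. Of 78, only 2 had a −log10 p of at least 10 in SG, Gdap1l1 with 521 bp (10.8) and Perp with 1776 bp (10.1). Perp, a p53 target of desmosomes, also had H3K27ac only in SG, with a summit of 26.3, and had 1422 bp of H3K4me3 in MEF KI. Cst6, a cysteine protease inhibitor, had 354 bp (8.61) and an H3K27ac summit of 24.1 in SG, with neither in WT. Gata4, a heart and gonad factor, had 1256 bp (8.38) in SG and 947 bp in MEF KI. The other 6 of the 10 strongest were Gm10545, Kcnk12, Ccin, Celsr3, Dscam and Fezf2, with widths of 258 to 695 bp and a −log10 p of 6.97 to 8.55. Msx2, a limb factor, had 475 bp at 3.57 and was also gained in MEF KI. At Gdap1l1, Cst6, Gm10545, Ccin, Celsr3, Dscam and Fezf2 the MEF KI library had no region.

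Of 93 widened promoters, 21 were at least 2 kb wide in the wider library. Wnt7a, a secreted Wnt ligand, went from 573 to 2205 bp (2.05), its −log10 p from 5.32 to 10.1, and H3K27ac from no summit to one at 13.5. 2900010M23Rik went from 1008 to 2003 bp (1.10). Abcb1b, a multidrug efflux pump, went from 1302 to 2480 bp (1.04), with H3K27ac of 28.2 and 77.4. Gm9934 (0.98), the homeodomain gene Onecut2 (0.83), the Ras effector gene Rassf5 (0.82), Esx1 (0.81), 2310002L13Rik (0.77), the chaperone gene Hspa4l (0.72) and the G protein subunit gene Gng10 (0.71) completed the 10. Wnt7b was also widened, from 753 to 1056 bp (0.60). Tubb3, a neuronal tubulin, went from 1131 to 1581 bp (0.59), just past the threshold, with an H3K27ac summit of 60.6 in SG and none in WT. In MEF KI, classed by its own median ratio, Wnt7a, Wnt7b and Tubb3 were lost, while Hoxd10 was widened as in SG.

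Prrx1 binding in MEF WT, 3048 summits, met few of these promoters. Within 1 kb of the H3K4me3 group there was a Prrx1 summit at 0 of 411 lost, 0 of 78 gained, 11 of 440 narrowed (2.5%, 1.40 to 4.42%), 0 of 93 widened and 162 of 11382 stable genes (1.42%, 1.22 to 1.66%). The intervals of narrowed and stable genes overlap. Among the 71 interferon-stimulated genes it was at 1, Samd9l. Thy1 and Col16a1 were among the narrowed genes with a summit, and Prrx1 itself had 2. Distal binding was not assigned to genes.

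Lost and narrowed promoters were poorer in CpG than stable ones, and gained and widened ones were too, by less. Promoters with regions of like strength were not compared. The ratio of observed to expected CpG in the 300 bases around the start had a median of 0.58 at lost, 0.62 at narrowed, 0.69 at gained, 0.70 at widened and 0.82 at stable genes, and 0.21 at genes with no region. At the 41 lost or narrowed interferon-stimulated genes it was 0.19 and at the 30 stable ones 0.53. Single promoters did not follow the class medians throughout. Of those printed, the lost Ifi44 (0.39), Oas1a (0.19) and Thbs2 (0.23) were low, as was the stable Isg15 (0.38). The gained Perp (0.72) and the narrowed Usp18 (0.75) lay below the stable median of 0.82, and the widened Wnt7a (0.94) above it. GAAANNGAA, searched on both strands with overlapping matches allowed, was in 8.67% of all 22372 protein-coding promoters and 6.85% of those with a region. It was in 24 of the 41 lost or narrowed interferon-stimulated genes (58.5%) and 15 of the 30 stable ones (50.0%). Outside that list it was in 42 of 396 lost (10.6%, 7.94 to 14.03%) and 35 of 414 narrowed promoters (8.45%, 6.14 to 11.5%), and over all stable genes in 6.47% (6.03 to 6.93%). Among genes with no region it was in 10.9% (10.3 to 11.6%), near the share of the lost ones. The homeodomain word TAATTA was in 4.14% of lost, 2.5% of narrowed, 2.56% of gained, 1.08% of widened and 1.75% of stable promoters. It was in 1.85% of those with a region, 8.06% of those without and 4.62% of all. A match describes these letters and not a bound site.

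Lost WT regions were spread over the genome. By autosome and X the share of WT groups lost ranged from 8.89% (chromosome 11) to 15.7% (chromosomes 15 and 18). On chromosome Y 4 of 7 groups were lost, among them Eif2s3y, with 420 bp at 6.21, while Kdm5d, Uty and Ddx3y had regions in both libraries. The longest runs of consecutive lost WT regions held 6, at chr6:99080484-99435239 and chr8:19919336-19995642, both made of regions with a −log10 p below 10. The run at chr18:60371314-60536632 with Iigp1 was the one with several protein-coding starts.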

How the data were processed

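H3K4me3 was measured by ChIP-seq in 7 fibroblast libraries, with H3K27ac and Prrx1 in others of the same series. Per the study's methods the authors used Trimmomatic for trimming and Bowtie for alignment to mm9. Duplicates were taken out with Picard, and broad regions were then called by MACS2 in each library against its input. The deposited lists give each region's −log10 p and its fold, or ratio, over input, and no read counts, so the depth is unknown. Of the lists, 10 were used here (7 H3K4me3, 2 H3K27ac, 1 Prrx1 library), and 7 input libraries were not used.

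Regions were joined, assigned to start sites of GENCODE vM1 genes (NCBIM37, the build of mm9) and classed as described. Each group and mark is 1 sample here, so no test was run. The methods state that Prrx1 ChIP-seq was done in duplicate, and 1 Prrx1 list was used. Intervals on shares are 95% Wilson intervals and cover counting error only. A summit was assigned to a gene within 1 kb of its group. Widths in the other libraries are summed over regions that overlap the gene's MEF group. Promoter sequences came from the NCBIM37 genome. The genes named are Prrx1, list members that changed class, the 10 strongest or most changed per class (narrowed and widened at 2 kb or wider), and neighbours of the threshold. Others, among them stable members, Lama4, Rarb and the promoters printed, were chosen after their values were seen. The members and lists were chosen with earlier results of these data known. The joining and classing were tested on simulated data. Alternatives were other strength limits, list sizes, overlaps, start-site windows, width thresholds and centrings. Software comprised samtools 1.23.1, matplotlib 3.10.9, scipy 1.17.1, pandas 2.3.3, numpy 2.4.6 and Python 3.11.15.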

Additional observations from a re-analysis of the deposited data

Results flagged for a closer look

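The interferon-stimulated genes differed in opposite directions between WT and SG in 2 fibroblast types. The median relative log2 width was −0.54 in MEF and 0.89 in MMTV-CAF, that is, narrower in the SG library of MEF and wider in that of MMTV-CAF. In MEF 41 of 71 were lost or narrowed and 0 gained or widened, and in MMTV-CAF 59 of 76 were gained or widened and 0 lost or narrowed. The difference between the 2 types was not tested, because each group is 1 library, and the list was put together after values had been seen.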

How the results depend on the processing

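With both lists kept to regions with a −log10 p of at least 10, 939 WT regions were lost and 93 SG regions gained, and 27 genes were gained, 251 narrowed and 41 widened. With that limit on the unpaired region alone, 39 genes were lost and 2 gained. With lists of equal size, 992 WT regions were lost, 839 SG regions gained and 145 genes gained. With the start site itself in place of the window of 1 kb, 256 genes were lost and 39 gained. A 2-fold width threshold left 160 genes narrowed, 24 widened and 27 interferon-stimulated genes lost or narrowed. Without centring on the median ratio 58 genes were widened, and with groups of at least 1 kb in both lists 183 were narrowed and 25 widened. Under the 12 alternatives other than the 2-fold threshold, the interferon-stimulated genes lost or narrowed numbered 35 to 45 of 65 to 72. Of the 20 most narrowed or widened genes named, 8 kept their class with both lists at a −log10 p of at least 10, 11 with groups of at least 1 kb and 13 at the 2-fold threshold. The other 12 (Zic1, Zic4, Sox11, Sp100, Pde8b, Sdpr, Stox2, Nov, Wnt7a, Onecut2, Esx1 and 2310002L13Rik) had no paired value under the first of these. No relative width that could be computed changed sign. No paired analysis was possible because each group has 1 library and no replicate numbers. Without replicates, culture-to-culture variation, antibody efficiency and depth cannot be told apart from genotype.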
